A study of Ovis aries with 8 samples.

Results

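Genes of the retinoic acid pathway were followed in the mediobasal hypothalamus of food-restricted and well-fed ewes. The pathway was represented by 9 genes chosen by name: STRA6, CRABP1, RDH10, DHRS3, ALDH1A1, ALDH1A2, CYP26B1, RARB and RXRG. Of these, 8 were read from the 33609 genes of the count table, all 8 had enough reads to be tested, and CYP26B1 was not analysed here. The study used adult Ile-de-France ewes that were either food-restricted or fed without limit. RNA was extracted from each of 60 ewes per group, 30 in each of 2 years, and mixed in equal amounts from 15 randomly drawn ewes into each of 4 pools per group. A pool is therefore an average over ewes, n counts pools, and the labels name neither the year of a pool nor whether pools share ewes. Levels are given in CPM, that is, counts relative to the scaled total of their pool, and differences as log2 fold changes, food-restricted minus well fed.

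Retinoic acid is made from vitamin A (retinol) inside the cell. Retinol arrives bound to the carrier RBP4 and enters through STRA6, is oxidised to retinal and then to retinoic acid, and is cleared by enzymes of the CYP26 family. The acid binds nuclear receptors of the RAR type, which act as pairs with RXR partners on target genes. In the rodent hypothalamus the machinery has been located around the third ventricle, in particular in tanycytes, the glia that line its floor, and parts of it there follow day length.

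None of the 8 genes passed the test between food-restricted and well-fed pools. By edgeR's quasi-likelihood test 0 of 8 passed an adjusted p of 0.05, in a comparison where 1 of 18193 genes passed (0.0055%). That gene was AGRP, the hunger peptide of arcuate neurons, at 155 ± 25.9 against 50.7 ± 10.1 CPM (SD, n = 4 each), and its own call was lost when any 1 of the 8 pools was left out. At an unadjusted p under 0.05 there was 1 gene of 8, ALDH1A2, where 1.7% of all tested genes reached that level, and DESeq2 and limma voom also called 0 of the 8. Of the 8, 4 were higher and 4 lower, between -0.24 and 0.24 on the log2 scale, with a median of 0.01 that equals the median of 0.01 over all tested genes. In 0 of 8 did the pools of the groups lie fully apart, where 1.6% of all tested genes did.

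**Figure D1:**
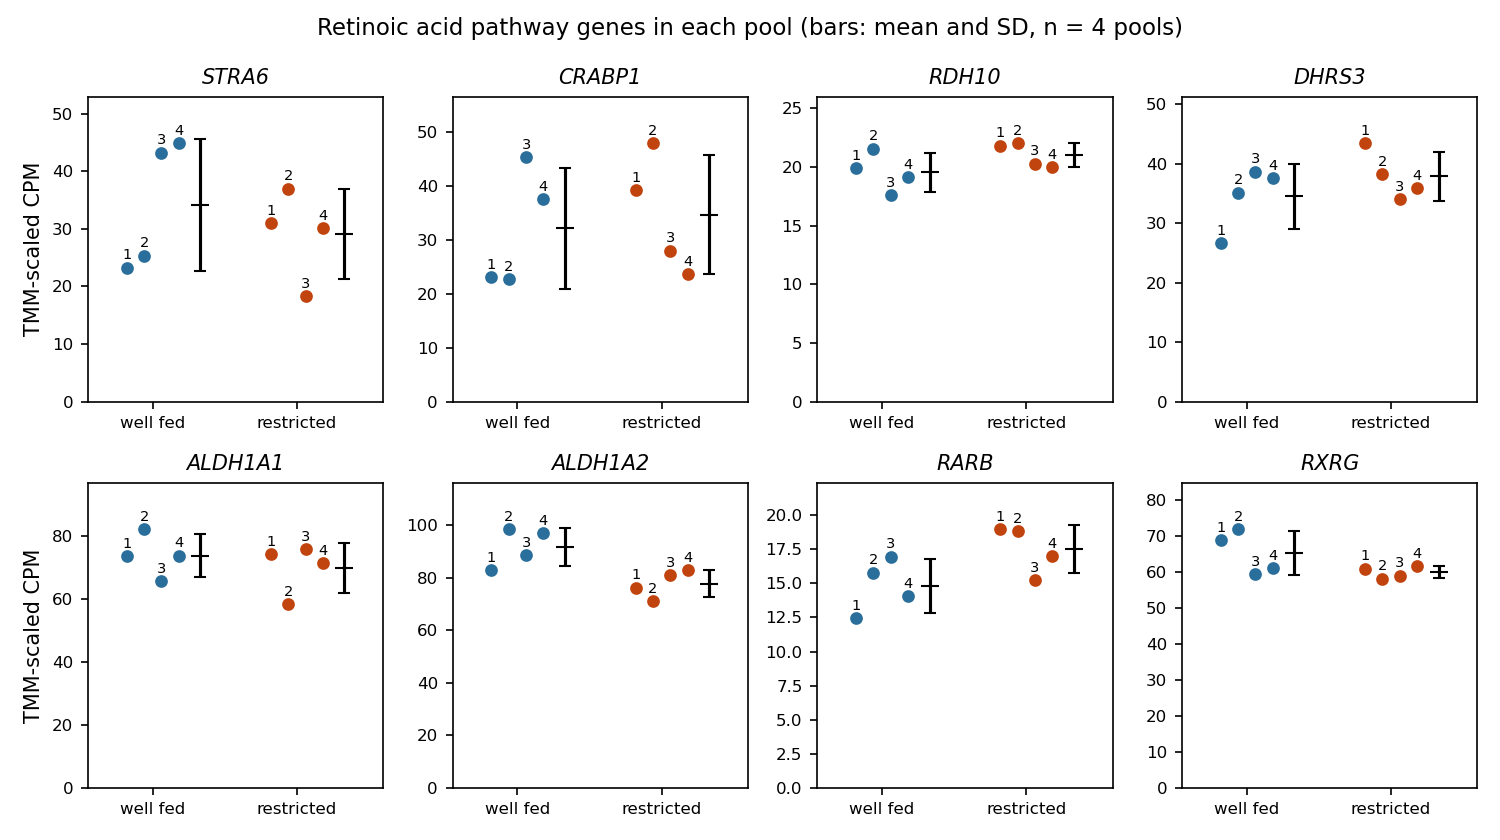
TMM-scaled CPM of the 8 retinoic acid pathway genes (y axis from 0) in each well-fed (blue) and food-restricted (orange) pool, numbered by pool, with the mean and SD of 4 pools beside them. The groups overlap in every panel; ALDH1A2 comes closest to separating, and STRA6 and CRABP1 spread widest within each group.

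The uptake and binding steps varied most between pools. STRA6 (gene ID 101120527), the membrane receptor that takes up retinol from RBP4, stood at 30.9, 37.0, 18.4 and 30.1 CPM in food-restricted pools 1 to 4. In well-fed pools 1 to 4 it stood at 23.2, 25.3, 43.2 and 44.9 CPM. The well-fed group thus held a low pair and a high pair of pools, and the food-restricted pools fell between and below them. The log2 fold change of STRA6 was -0.23 (SE 0.26, 95% interval -0.81 to 0.35), with an exact two-sided permutation p of 0.571 and an edgeR adjusted p of 1. CRABP1 (gene ID 101122057), which binds retinoic acid in the cytosol, stood at 39.2, 47.9, 28.0 and 23.6 CPM in food-restricted pools 1 to 4. Its levels in well-fed pools 1 to 4 were 23.0, 22.7, 45.4 and 37.6 CPM. Each group again had 2 high and 2 low pools, and the group means differed little. The log2 fold change of CRABP1 was 0.11 (SE 0.28, interval -0.50 to 0.72; exact two-sided permutation p = 0.6, edgeR adjusted p = 1). Its sign was not stable: it was -0.07 without food-restricted pool 2, -0.02 without well-fed pool 1 and -0.03 without well-fed pool 2.

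The first oxidation step and its reversal were steadier. RDH10 (gene ID 101116487), which oxidises retinol to retinal, stood at 21.8, 22.0, 20.3 and 20.0 CPM in food-restricted pools 1 to 4. It stood at 19.9, 21.5, 17.6 and 19.1 CPM in well-fed pools 1 to 4, so that 1 well-fed pool, the second, lay within the food-restricted range. Its log2 fold change was 0.11 (SE 0.12, interval -0.17 to 0.38; exact two-sided permutation p = 0.143, edgeR adjusted p = 1). DHRS3 (gene ID 101109288), which reduces retinal back to retinol and is itself induced by retinoic acid, stood at 43.5, 38.2, 34.0 and 35.9 CPM in food-restricted pools 1 to 4. In well-fed pools 1 to 4 it stood at 26.7, 35.2, 38.7 and 37.5 CPM. Well-fed pool 1 was the low one, and the other 7 pools lay between 34.0 and 43.5 CPM. The log2 fold change of DHRS3 was 0.14 (SE 0.14, interval -0.18 to 0.45; exact two-sided permutation p = 0.429, edgeR adjusted p = 1), and 0.03 without well-fed pool 1.

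The dehydrogenases ALDH1A1 and ALDH1A2, which make the acid, differed between the groups by at most 0.24 on the log2 scale. ALDH1A2 (gene ID 101117509), a retinal dehydrogenase known from the meninges of the adult brain, stood at 76.2, 71.1, 80.8 and 82.9 CPM in food-restricted pools 1 to 4. It stood at 82.9, 98.4, 88.7 and 97.0 CPM in well-fed pools 1 to 4. The groups met at 1 point only, where food-restricted pool 4 (82.94 CPM) was level with well-fed pool 1 (82.90 CPM). Means and SDs over 4 pools were 77.8 ± 5.26 and 91.7 ± 7.30 CPM, and ALDH1A2 was 0.848-fold in the restricted group (log2 fold change -0.24, SE 0.11, interval -0.47 to -0.01). ALDH1A2 did not pass over all genes (edgeR unadjusted p = 0.0457, adjusted p = 1), and the exact two-sided permutation p was 0.0571. Over 20 alternatives its log2 fold change stayed between -0.28 and -0.18, its edgeR, DESeq2 or limma unadjusted p was under 0.05 in 9 and its adjusted p was 0.84 or more. Among 8 marker genes of meninges and fibroblasts 3 were higher and 5 lower (median -0.03), and their summed level was 499.6 to 539.7 CPM in food-restricted and 506.1 to 603.8 CPM in well-fed pools. COL1A2 had a log2 fold change of -0.14 (SE 0.10) and DCN of -0.05 (SE 0.16). The pools of the groups lay fully apart for 2 of the 8 markers, in opposite directions, where 1.6% of all tested genes lay apart. The 2 were COL3A1 at -0.40 (SE 0.14) and FOXC1 at 0.62 (SE 0.17), both named after their values were seen and neither passing over all genes. The part of these cells in the ALDH1A2 difference was not tested, and in bulk tissue fewer cells of a type and less RNA per cell cannot be told apart.

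ALDH1A1 (gene ID 443343), another retinal dehydrogenase and one found in tanycytes and dopamine neurons, stood at 74.3, 58.5, 75.9 and 71.4 CPM in food-restricted pools 1 to 4. It stood at 73.8, 82.3, 65.8 and 73.9 CPM in well-fed pools 1 to 4. Food-restricted pool 2 was the lowest of the 8 and well-fed pool 2 the highest, and 5 of the other 6 lay within 71.4 to 75.9 CPM. The log2 fold change of ALDH1A1 was -0.08 (SE 0.12, interval -0.34 to 0.19; exact two-sided permutation p = 0.571, edgeR adjusted p = 1), and 0.02 without food-restricted pool 2. The summed level of 10 tanycyte markers was 1333 to 1466 CPM in food-restricted and 1284 to 1545 CPM in well-fed pools. Of the 8 tested, 6 were higher and 2 lower (median 0.05), with VIM at 0.02 (SE 0.11) and CRYM at 0.08 (SE 0.11) on the log2 scale. These 2 make up most of the sum, and DIO2, the activating enzyme of thyroid hormone and a tanycyte marker named after its values were seen, was at -0.59 (SE 0.17) and did not pass over all genes. The part of tanycytes in the ALDH1A1 values was not tested.

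**Figure D2:**
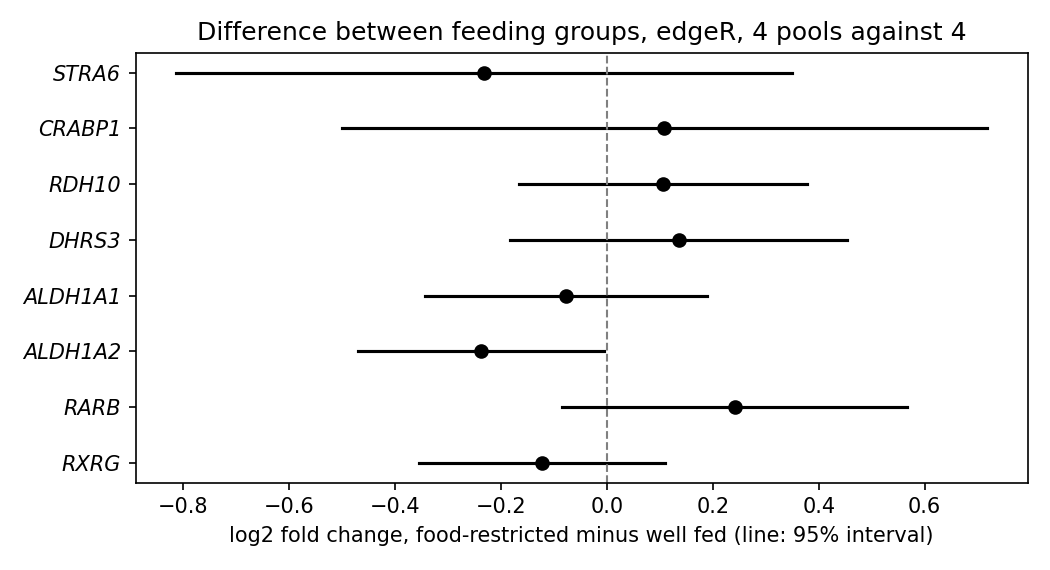
Log2 fold change (x axis, food-restricted minus well fed) of the 8 genes as points with 95% intervals from edgeR, 4 pools against 4. The intervals of 7 genes include 0, that of ALDH1A2 ends at -0.01 before adjustment for the number of genes, and those of STRA6 and CRABP1 are the widest.

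The receptors leaned in opposite directions, neither beyond the spread of the pools. RARB (gene ID 101122663), a retinoic acid receptor whose own gene is a classical retinoic acid target, stood at 19.0, 18.8, 15.3 and 17.0 CPM in food-restricted pools 1 to 4. It stood at 12.5, 15.8, 17.0 and 14.1 CPM in well-fed pools 1 to 4. The 2 highest pools were food-restricted and the 2 lowest well fed, with the groups overlapping between 15.3 and 17.0 CPM. Means and SDs over 4 pools were 17.5 ± 1.76 and 14.8 ± 1.97 CPM (log2 fold change 0.24, SE 0.15, interval -0.09 to 0.57; exact two-sided permutation p = 0.114, edgeR adjusted p = 1). Without any 1 pool it stayed between 0.17 and 0.33. RXRG (gene ID 101111845), a partner of RARs and of thyroid hormone receptors, stood at 60.8, 58.1, 58.9 and 61.6 CPM in food-restricted pools 1 to 4. It stood at 68.8, 71.7, 59.3 and 61.0 CPM in well-fed pools 1 to 4. The food-restricted pools were tightly grouped (SD 1.62 CPM), while well-fed pools 1 and 2 lay above all others (SD 6.01 CPM). The log2 fold change of RXRG was -0.12 (SE 0.11, interval -0.36 to 0.11; exact two-sided permutation p = 0.171, edgeR adjusted p = 1). RARB and RXRG also mark striatal neurons. The 8 striatal markers summed to 151.0 to 174.7 CPM in food-restricted and 178.6 to 197.8 CPM in well-fed pools, without overlap, with PPP1R1B at -0.24 (SE 0.13) and PDE10A at -0.48 (SE 0.16) on the log2 scale. The list was not lower throughout: 3 of the 8 markers were higher and 5 lower (median -0.06), and none of the 8 lay fully apart by itself. PPP1R1B, PDE10A and RGS9 made up most of the sum. RARB was higher and RXRG lower in the food-restricted pools beside this, and the part of striatal tissue in either difference was not tested.

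CRABP1, STRA6 and DHRS3 shared a pattern that crossed the feeding groups. The first principal component of log2 CPM over all tested genes held 34.7% of the variance and placed food-restricted pools 1 and 2 and well-fed pools 3 and 4 below 0, and the other 4 pools above 0. CRABP1 stood at 37.6 to 47.9 CPM in the 4 pools below 0 and at 22.7 to 28.0 CPM in the 4 above, with means 1.75-fold apart. STRA6 stood at 30.9 to 44.9 against 18.4 to 30.1 CPM, 1.61-fold apart, and DHRS3 at 37.5 to 43.5 against 26.7 to 35.9 CPM, 1.20-fold apart. The other 5 genes overlapped between the sides, with ratios of means from 0.898 (ALDH1A1) to 1.14 (RARB). The component was computed from these same libraries and so gives no test. Of all tested genes 14.2% lay fully apart with the pools below 0 higher, against 3 of these 8, and 8.93% lay apart the other way, against 0 of 8. Among 49 other tested retinoid genes, described below, 7 lay apart with the pools below 0 higher and 2 the other way.

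Within each side of the component the feeding difference was read from 2 pools a group. The pools are the same 8, so these folds are no independent reading. STRA6 was 0.768-fold in food-restricted against well-fed pools below 0, where food-restricted pools 1 and 2 lay under well-fed pools 3 and 4, and 0.968-fold above 0. CRABP1 was 1.05-fold below 0 and 1.12-fold above it. ALDH1A2 was 0.794-fold and 0.907-fold, and RARB 1.22-fold and 1.15-fold. RXRG was 0.989-fold and 0.858-fold, ALDH1A1 0.946-fold and 0.945-fold, and DHRS3 1.07-fold and 1.14-fold. All of these kept their direction on both sides, as did STRA6 and CRABP1. Only RDH10 changed direction, at 1.19-fold below 0 and 0.973-fold above it. With the side as a block in edgeR, the SE of CRABP1 fell from 0.28 to 0.12 and that of STRA6 from 0.26 to 0.15, and 0 of the 8 genes passed. With 1 surrogate variable in the fit STRA6 had a log2 fold change of -0.28 (SE 0.11, edgeR unadjusted p = 0.0202, adjusted p = 0.857), the 1 setting of 20 in which its unadjusted p was under 0.05. The side and the surrogate variable were computed from these same libraries, so the smaller SEs and this p are no independent reading.

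**Figure D3:**
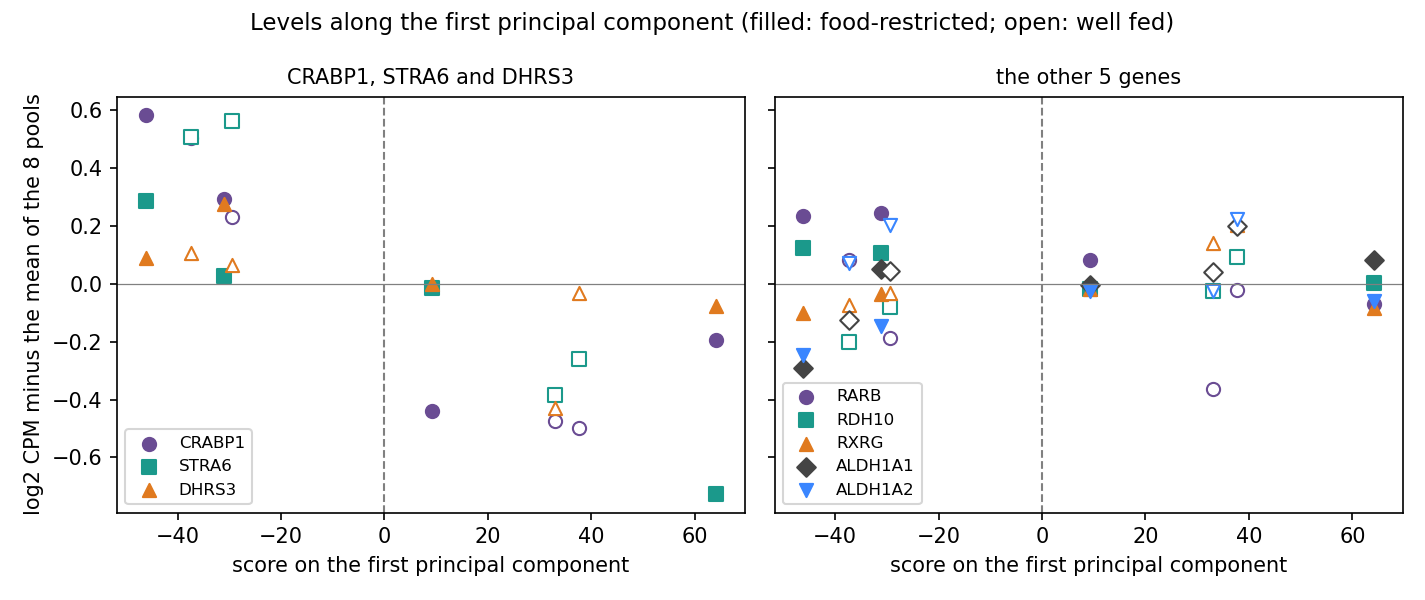
Log2 CPM minus the mean of the 8 pools (y axis) against the pool's score on the first principal component of all tested genes (x axis, no unit), filled for food-restricted and open for well-fed pools. CRABP1, STRA6 and DHRS3 in the left panel are each higher in every pool left of 0 than in any pool right of it; the other 5 genes in the right panel overlap between the sides.

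The genes with the most similar profiles over the 8 pools were found for the 3 most variable members. Likeness was the root mean square distance between profiles of log2 CPM, each centred on its mean, among 13710 genes with a symbol and a mean of at least 1 CPM. For CRABP1 these were KLF15 (distance 0.06), a Krüppel-like transcription factor, MBP (0.07), a myelin protein, and PRICKLE3 (0.08), where the median gene lay at 0.50. MBP stood at 2121, 2542, 1388 and 1253 CPM in food-restricted pools 1 to 4 and at 1103, 1131, 2580 and 1925 CPM in well-fed pools 1 to 4. For STRA6 the nearest were ATPAF2, POP7 and SERINC2 (0.11 each, median gene 0.49), and for RARB they were WDR73 (0.07), RRP1B (0.09) and GTF2IRD1 (0.09), with the median gene at 0.30. The profiles share libraries and scaling, and the distances carry no test.

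The rest of the retinoid system was read from a list of 61 other genes, of which 49 were tested. Of these 31 were higher and 18 lower (median 0.06), 0 passed by edgeR, DESeq2 or limma voom, 1 had an edgeR unadjusted p under 0.05 (ALDH1A3), and 1 had groups that lay fully apart (LRP2). Over all 18193 tested genes 9632 were higher and 8561 lower (median 0.01), 1.7% had an unadjusted p under 0.05 and 1.6% lay fully apart, so that 1 of 49 is near the share among all genes. Carriers and storage genes had 4 of 10 tested members higher and 6 lower (median -0.06). RBP4, the retinol carrier that STRA6 binds, was at -0.07 (SE 0.15), FABP5, a lipid carrier that can also hand retinoic acid to a receptor, at -0.14 (SE 0.12), and DGAT1, which can esterify retinol, at -0.05 (SE 0.18). LRP2, an endocytic receptor named here after its values were seen, lay fully apart at 2.08 to 2.40 against 1.46 to 1.98 CPM (log2 fold change 0.38, SE 0.26, edgeR adjusted p = 1). CRABP2, the second cytosolic binding protein and also named after its values were seen, was at 9.22 ± 1.24 against 11.6 ± 1.53 CPM (-0.33, SE 0.16; exact two-sided permutation p = 0.0571, n = 4 each). TTR, which carries RBP4 in blood and marks choroid plexus, was at 0.57 (SE 0.31). The choroid plexus markers summed to 53.8 to 87.1 CPM in food-restricted and 44.1 to 74.1 CPM in well-fed pools. TTR made up most of that sum in every pool. Of the 6 markers 4 were higher and 2 lower (median 0.17), with CLIC6 at 0.06 (SE 0.19).

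Of 13 tested genes listed under synthesis 10 were higher and 3 lower, with a median of 0.19. The 13 also hold BCO1, BCO2, RPE65 and RLBP1, which are not retinol or retinal dehydrogenases. Over all tested genes 9632 of 18193 were higher. The 13 do not hold ALDH1A2 (-0.24), ALDH1A1 (-0.08) and RDH10 (0.11), which were described above. Some of the 13 had low levels and wide errors, such as ALDH8A1 (0.19, SE 0.77) and BCO1 (0.26, SE 0.70) among the higher and RDH13 among the lower. ALDH1A3, the third retinal dehydrogenase, was at 11.5, 6.15, 6.58 and 8.92 CPM in food-restricted pools 1 to 4 and at 5.49, 6.97, 4.63 and 4.36 CPM in well-fed pools 1 to 4. Food-restricted pools 1 and 4 lay above every well-fed pool and pools 2 and 3 within the well-fed range. Its log2 fold change was 0.63 (SE 0.24, edgeR unadjusted p = 0.0266, adjusted p = 1), opposite in sign to that of ALDH1A2. The abundant retinol dehydrogenases RDH14 (0.01, SE 0.17), RDH11 (-0.24, SE 0.17) and RDH5 (0.02, SE 0.15) did not pass. RDH13, named after its values were seen, has an uncertain value. The row listed under that symbol was at -0.66 (SE 0.63). A row listed without a symbol, which RefSeq also calls RDH13, was at 0.56 (SE 0.22) with its groups fully apart. The counts of higher, lower and separated genes in the list hold only the row under the symbol.

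The list of receptors had 7 of 8 tested genes higher and 1 lower (median 0.09), where 9632 of all 18193 tested genes were higher. The 8 do not hold RARB (0.24) and RXRG (-0.12), which were described above. Beside RARs and RXRs they hold NR2F1, NR2F2, PPARD and GPRC5A. RXRA was at 0.07 (SE 0.29), NR2F1, which competes with RARs for binding sites, at 0.21 (SE 0.24), and RXRB at -0.10 (SE 0.09). The receptor cofactors split 3 higher and 3 lower (median -0.01). The corepressor NCOR1 was at 0.08 (SE 0.12), the coactivator NCOA1 at -0.03 (SE 0.13) and the Mediator subunit MED1 at -0.15 (SE 0.11). Target genes had 7 of 12 tested members higher and 5 lower (median 0.02). CD38 was at 0.02 (SE 0.12), RAI1 at 0.21 (SE 0.37) and RARRES2, which encodes chemerin, at 0.18 (SE 0.30).

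**Figure D4:**
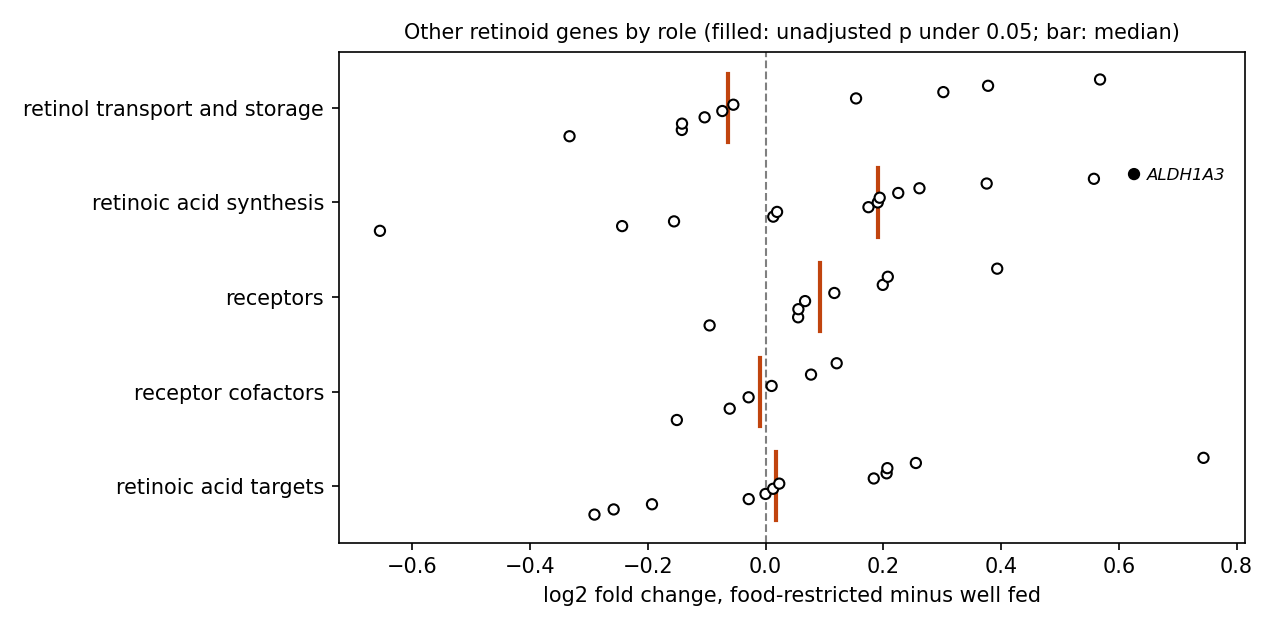
Log2 fold change (x axis, food-restricted minus well fed) of the 49 other tested retinoid genes by role; each point is a gene, filled where the edgeR unadjusted p was under 0.05, and the vertical bar is the median of the role. ALDH1A3 is the filled point. The genes listed under synthesis, shown without ALDH1A1, ALDH1A2 and RDH10, have the highest median, 0.19.

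Total counts were between 36192025 and 48125991 per pool, and the lowest count of any of the 8 genes in a pool was 500 (RARB in well-fed pool 4), which gives a counting error of 4.47%. All 10 mediobasal markers were detected and tested, with POMC at -0.11 (SE 0.61) and TBX3 at 0.13 (SE 0.11) as the most abundant over the pools. Their summed level was 533.5 to 777.6 CPM in food-restricted and 390.4 to 828.7 CPM in well-fed pools. The other lists overlapped between the groups in summed level, with medians between -0.13 (dopamine neurons: TH and DDC the most abundant) and 0.09 (oligodendrocytes: MBP the most abundant). These were astrocytes (GFAP, SLC1A3), neurons (STMN2, SNAP25), microglia (CSF1R, P2RY12), ependyma (CCDC153, DYNLRB2) and endothelium (PECAM1, FLT1). They also held pericytes and smooth muscle (PDGFRB, ACTA2) and pituitary and pars tuberalis (CGA, PRL). Of the 6 pericyte and smooth muscle markers 3 were higher and 3 lower (median -0.07). Of the 6, 2 lay fully apart, where 1.6% of all tested genes did. These were KCNJ8 at -0.35 (SE 0.16) and ABCC9 at -0.70 (SE 0.33), named after their values were seen and neither passing over all genes. Red blood cell markers did not overlap, at 0.373 to 1.45 CPM in food-restricted and 1.61 to 4.13 CPM in well-fed pools in sum, with HBB and AHSP the ones tested and ALAS2 at 0 in all pools. Of these HBB was lower (log2 fold change -2.01, SE 0.82) and lay fully apart, while AHSP was at 0.30 (SE 0.58) and overlapped.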

How the data were processed

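The deposited table holds raw read counts per gene, a column for each pool, as the file headers show. Per the labels' protocols, RNA was extracted with TriReagent and sequenced from stranded mRNA libraries. The submitters' processing notes name featureCounts 2.0.0, the aligners Bowtie2 2.3.5.1 and TopHat2 2.1.1, and also SAMtools 1.9, FastQC and bcl2fastq 2.20. Genome build, annotation and strand setting were not given in the sources used here, so genes that overlap others or have near copies are uncertain. Transcript lengths are not given there either, so ranks of genes by CPM, used only to choose names, are not corrected for length. Of the gene IDs 83.6% were found in a RefSeq table (ARS-UI_Ramb_v3.0), used for names only.

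The analysis used edgeR 4.0.16 in R 4.3.3. There filterByExpr (minimum count 10, minimum total 15) kept 18193 genes, scaled by TMM, and glmQLFTest compared the groups with no covariate and Benjamini-Hochberg adjustment over all of them. The SE is the absolute log2 fold change over the square root of F. Exact permutation tests used log2 CPM (prior count 2) and all 70 relabellings. With 4 pools against 4 their smallest p is 0.0286. Pools of a group were not duplicates (chi-square over degrees of freedom from 25.0 to 169). p-values measure the spread between these pools. The test across genes was also run on simulated counts, whose outcome is not reported here, and small differences may go uncalled. Figures were drawn in Python 3.11.15.

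The members and lists were chosen with earlier results of these data known. Named were the members, AGRP, the 3 most abundant genes of each role and any with an unadjusted p under 0.05, the 3 genes nearest in profile to each of the 3 most variable members, and the 2 most abundant markers of each cell type. LRP2, CRABP2, RDH13 and a few markers were named after their values were seen. Some genes the rule or the lists held are not reported here. Alternatives were RLE, upper-quartile and total scaling, 2 other filters, the replicate number or component side as a block, 1 surrogate variable (sva 3.50.0), robust edgeR, DESeq2 1.42.0, limma 3.58.1 voom with and without quality weights, and each pool left out.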

Additional observations from a re-analysis of the deposited data

Results flagged for a closer look

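Of 116 groups of 4 pools checked for a pool far from the others, 2 held one, where chance alone gives about 1 in 20. RDH11 was at 18.2 CPM in food-restricted pool 1, while the other 3 food-restricted pools lay between 23.9 and 24.6 CPM. AGRP was at 193 CPM in food-restricted pool 1, above the 137 to 146 CPM of the other 3.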

How the results depend on the processing

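No retinoic acid member and no gene of the wider retinoid list passed under any of the 12 settings or the 8 fits that left out 1 pool. The count over all genes was 1 and became 0 with the replicate block, 6 with the component side as a block, 7 with 1 surrogate variable and 5 with DESeq2. It was 0 to 0 without any 1 pool, where the log2 fold change of AGRP stayed between 1.49 and 1.73 (edgeR adjusted p 0.0706 to 0.215). The sign of CRABP1 turned with voom quality weights (-0.10) and ranged from -0.073 (without food-restricted pool 2) to 0.33 without 1 pool, and that of ALDH1A1 from -0.12 to 0.017. Genes whose groups lay fully apart numbered 291, and 530 to 1223 without 1 pool, where fewer pools make separation easier. Among the 8 members, 1 lay apart with upper-quartile scaling and 1 with no low-count filter (ALDH1A2 in both), and 0 to 1 without 1 pool: ALDH1A2 when well-fed pool 1 or food-restricted pool 4 was dropped, RARB without food-restricted pool 3 and RDH10 without well-fed pool 2. Pools that share a number did not deviate together (correlations -0.42 to -0.21, 0 of 8 closest to their own number), and the replicate block changed no call among the members. Beyond what those constructions show, the cause was not tested. Counting error at the lowest count of each of the 8 members was between 1.83% (ALDH1A2) and 4.47% (RARB). Its share in the spread between pools was not tested.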
